A study of Ovis aries with 2 samples.

Results

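The genes described here encode the proteins of the cytoplasmic ribosome, as far as their symbols identify them in 2 single-cell RNA libraries of sheep testis. They were taken by symbol: RPL or RPS followed by a digit, together with RPLP0, RPLP1, RPLP2 and RPSA, leaving out symbols with a hyphen and the RPS6 kinases. This gave 34 of the 27054 genes listed, 19 with a symbol of the small subunit, 14 with a symbol of the large subunit, and RPS19BP1, which binds RPS19 and is not itself a ribosomal protein. The symbol rule was kept as it stands, so RPS19BP1 is in the sums. No gene carried the symbol RPLP0, RPLP2, RPSA, RPL10, RPL39 or RPS4X. Further ribosomal protein genes may lie among the 10636 genes without a symbol, so every share here is a partial sum. A ribosome has a small subunit, which reads the messenger RNA, and a large subunit, which joins the amino acids, and each holds a single copy of most of its proteins. Dividing and secreting cells carry much of their messenger RNA as ribosomal protein messages, while spermatids store messages and lose most of their cytoplasm as they lengthen. Several ribosomal proteins have a second gene, and in mice RPL10L, an autosomal copy of X-linked RPL10, is used by male germ cells in meiosis.

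The libraries are labelled ZEA, with the number 0.75 and no unit, and control, with no further word on treatment. ZEA commonly stands for zearalenone, a toxin of Fusarium moulds that acts on oestrogen receptors; the labels neither spell it out nor say how the tissue met it. Both libraries are labelled testis at 8 months and were made with version V3 of the 10x Genomics 3′ kit, which counts each captured RNA molecule once through a unique molecular identifier (UMI). With 1 library per group there is no replicate and no test between groups, so every difference below is between these libraries, and the intervals (95%, exact) cover counting error only.

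The ZEA library held 22148456 UMIs in 8809 barcodes, of which 8804 were kept at a median of 1405.5 UMIs, and the control library 53044981 UMIs in 7030 barcodes, of which 6811 were kept at a median of 4121. The libraries share 15 barcodes. Cells were grouped into 23 clusters without the ribosomal protein genes and the other translation genes, and clusters were named "-like" from marker genes. Endothelial-like, peritubular myoid-like, perivascular-like and fibroblast-like cells were almost all from ZEA (3, 3, 4 and 10 cells from control), and late spermatocyte-like cells almost all from control (5 in ZEA, 1020 in control). Round and elongating spermatid-like cells were the classes with at least 50 cells in both libraries, but mostly in different clusters: 211 of the 242 ZEA round cells were in cluster 12 and 952 of the 988 ZEA elongating cells in cluster 4, whereas the 1393 control round cells were mainly in clusters 6 and 17 and the 1718 control elongating cells in clusters 5 and 20. Unnamed clusters held 4288 ZEA and 2591 control cells. In these sums, fewer transcripts per cell and a different mixture of cells in a class cannot be told apart.

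The 34 members took 8.38% of all UMIs in the kept ZEA cells and 2.62% in the kept control cells. The median cell had 4.24% in ZEA and 2.22% in control. The log2 ratio of the shares was 1.68 (1.67 to 1.68). The cell makeup differed with it: the named somatic classes were 37.3% of ZEA cells and carried 75.2% of the ZEA ribosomal protein UMIs, against 1.31% of control cells with 1.09% of the control ribosomal protein UMIs. The named germ classes carried 3.45% of the ribosomal protein UMIs in ZEA and 85.5% in control. Within the spermatid classes, where both libraries had cells, the shares of the libraries were near each other. Depth there was unequal. Round cells had a median of 1831 UMIs in ZEA and 13360 in control, and elongating cells 1774.5 in ZEA and 6153 in control. The deep ZEA cells of cluster 9 (416 cells, median 9655 UMIs, share 2.52%) stayed unnamed and are outside these classes.

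Elongating spermatid-like cells had a share of 2.06% (2.04 to 2.07) in ZEA and 2.03% (2.03 to 2.04) in control, a log2 ratio of 0.016 (0.00 to 0.03). Round spermatid-like cells had 1.99% (1.96 to 2.02) in ZEA and 2.27% (2.26 to 2.27) in control, a log2 ratio of -0.19 (-0.21 to -0.16). The sign of both small ratios depended on how cells were assigned. For round cells the ratio was 0.084 when each unnamed cluster joined its best-scoring class, and -0.0040 in cluster 12 alone. For elongating cells it was -0.082 with clusters made from all genes and -0.11 in cluster 4 alone. Cluster 3 held shallow barcodes and stayed unnamed, since its round spermatid score (1.04) was too near its early spermatocyte score (0.96). The share there was 2.21% in 636 ZEA cells and 2.25% in 792 control cells.

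**Figure D1:**
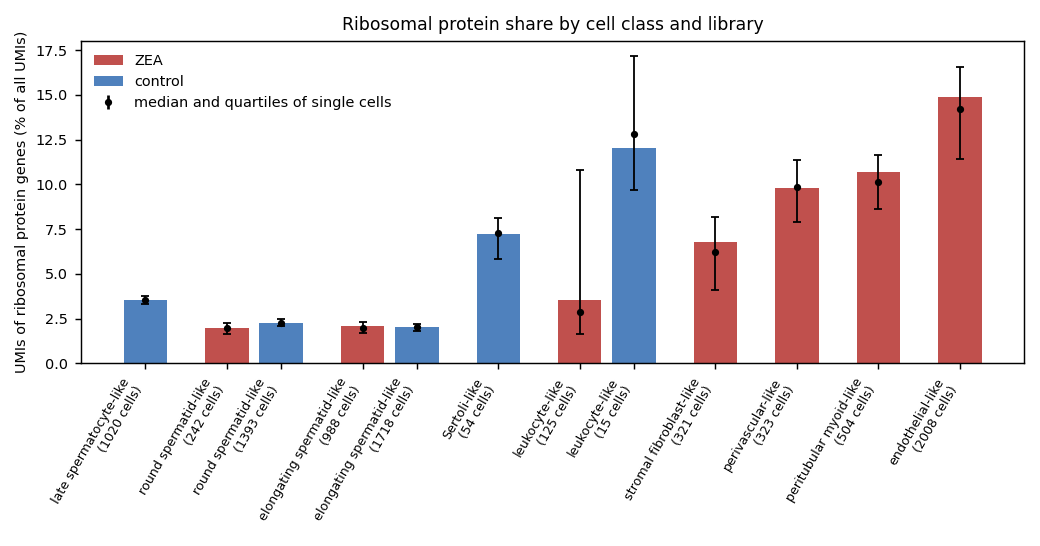
Bars show the percentage of all UMIs that came from the 34 ribosomal protein genes in each named class with at least 15 cells, red for ZEA and blue for control, and points with bars show the median and quartiles over single cells. Spermatid-like classes lie near 2% in both libraries, late spermatocyte-like cells at 3.54%, and the ZEA somatic classes between 6.76% and 14.9% apart from leukocyte-like cells.

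Somatic cells differed widely among themselves in this share. In ZEA, endothelial-like cells, which line blood vessels, had 14.9%, with cell quartiles at 11.4% and 16.6%. Peritubular myoid-like cells were named from contractile genes such as ACTA2 and MYH11. No marker list was used for vascular smooth muscle, so the class may hold such cells. Myoid-like cells had 10.7%, perivascular-like cells 9.79% and fibroblast-like cells 6.76%. The counting intervals of these 4 shares did not overlap, but they do not measure the spread of cells. Cell quartiles were 8.63% and 11.6% in myoid-like, 7.90% and 11.4% in perivascular-like, and 4.07% and 8.19% in fibroblast-like cells. The myoid-like and perivascular-like ranges thus overlapped widely. The endothelial-like clusters were unequal too, with 15.8% in cluster 7 (1623 cells), 10.6% in cluster 8 (340 cells, led by CXCL12 and HEY1) and 9.48% in cluster 16 (45 cells, led by LYVE1). Elongating spermatid markers, which mark RNA of another cell type here, ran the other way across these classes: their summed level was 8.19% of the elongating class level in endothelial-like, 14.1% in myoid-like, 19.9% in perivascular-like and 22.7% in fibroblast-like cells. Their part in the order was not tested.

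The highest share of any cluster was 17.1%, in the 156 ZEA cells of cluster 19, which was led by PLTP, WFDC2 and MME and stayed unnamed. In control, Sertoli-like cells, which nurse the germ cells, had 7.22% (7.05 to 7.39) in 54 cells with a median of 10.6% mitochondrial UMIs. The 3 control endothelial-like cells had 15.2% (14.4 to 16.0), beside 14.9% in the 2008 ZEA cells of the class.

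Leukocyte-like cells had 3.52% in ZEA (125 cells) and 12% in control (15 cells). This gap came with a single gene without a symbol, ENSOARG00000012585, which took 68.5% of the UMIs of the ZEA class and 13.1% of the control class. Leaving the 3 most abundant genes of each library's class out of the total, ribosomal protein genes had 14.6% in ZEA and 14.5% in control.

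Along the germ line the share could be followed in control. It was 4.43% in cluster 14 (145 cells, led by H1-6, TEX101 and TKTL1, with spermatogonial and early meiotic markers), 3.54% in late spermatocyte-like cells, 2.49% in round cluster 17, 2.09% in round cluster 6, 2.03% in elongating cluster 5 and 2.02% in elongating cluster 20. Cluster 21, which stayed unnamed for its low depth and had the highest level of the late spermatid gene SPEM1, had 1.31%. The share was lower at each later step as far as cluster 6 and almost level from there through clusters 5 and 20, and cluster 21 was lower again. Relative to the stage before, the log2 ratio of the share was -0.64 for round over late spermatocyte-like cells and -0.16 for elongating over round spermatid-like cells.

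Within cluster 14, a split made after the data were seen set 18 control cells with more spermatogonial than early spermatocyte marker UMIs apart from the other 127. The share was 8.63% (8.49 to 8.78) in the 18 cells and 4.16% (4.13 to 4.19) in the 127. The 15 ZEA cells of the cluster had 11.2%. The same split of them gave no such difference, with 10.7% in 5 cells with more spermatogonial marker UMIs and 11.5% in the other 10.

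Most members were moderately lower in control round spermatid-like than in late spermatocyte-like cells, with quartiles of the log2 ratio at -0.78 and -0.34. Of 33 members with at least 50 UMIs in the pair of control stages, 1 was more than 2-fold higher and 8 were more than 2-fold lower in the round cells. Over all 9713 genes, 69.3% were past 2-fold, 32.4% higher and 36.9% lower, so a smaller share of members than of all genes was past 2-fold. The median log2 ratio was -0.58 over the members and -0.42 over all genes.

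RPS20, a small subunit protein, had 107 CPM (UMIs scaled to a total of 1000000) in control round cells and 858 CPM in control late spermatocyte-like cells, a log2 ratio of -3.00 (-3.07 to -2.94). RPS23, which lies at the decoding centre, had 41.3 CPM in round and 168 CPM in late spermatocyte-like cells, a log2 ratio of -2.02. Further small subunit genes past 2-fold lower were RPS10 (-1.54) and RPS27L (-1.43), a paralogue of RPS27. Also past 2-fold lower were the large subunit genes RPL23A (-1.51) and RPL15 (-1.37) and the RPS19-binding RPS19BP1, with 22 UMIs in round against 201 in late spermatocyte-like cells (-3.96). RPL3L, a paralogue of RPL3 best known from striated muscle, was the member past 2-fold higher, with 12.4 CPM (244 UMIs) in round and 2.25 CPM (26 UMIs) in late spermatocyte-like cells. RPS21 (0.59), RPS2 (0.20) and RPL29 (0.13) were next, none past 2-fold.

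**Figure D2:**
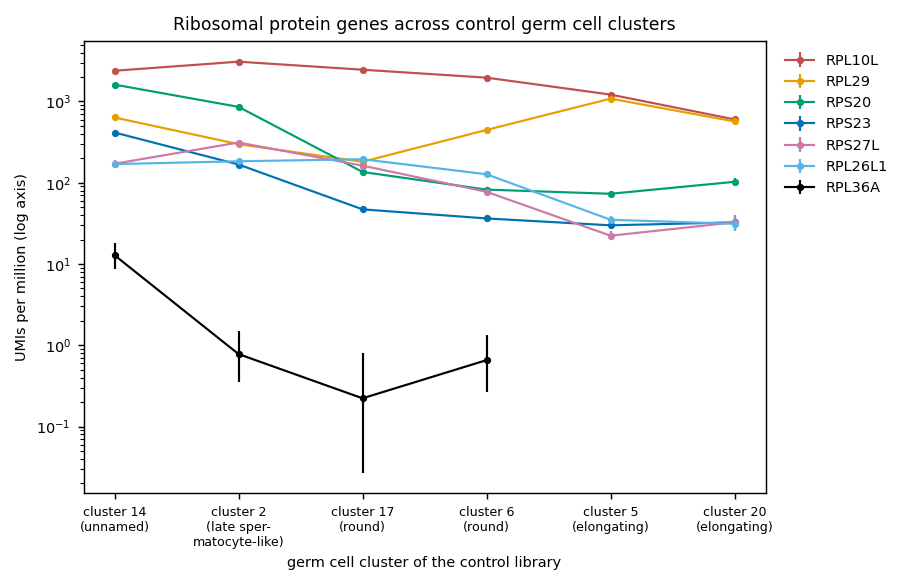
Level in CPM (log axis) of 7 members in 6 germ cell clusters of the control library, with exact 95% counting intervals; a level of 0 is not drawn, which ends the RPL36A line after cluster 6. RPS20 and RPS23 are highest in cluster 14, RPL10L in cluster 2 and RPL29 in cluster 5.

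Between elongating and round spermatid-like cells few members differed more than 2-fold. In control, of 32 members tested, 1 was more than 2-fold higher (RPL29) and 3 were more than 2-fold lower (RPS27L, RPL26L1, RPL10L) in elongating cells; over all genes 9.83% were higher and 31% lower, so a smaller share of members than of all genes was lower. RPL29, a large subunit protein, had 968 CPM in elongating and 325 CPM in round cells, a log2 ratio of 1.57 (1.53 to 1.62). By cluster in stage order its level was 635, 298, 181, 447, 1084 and 568 CPM in clusters 14, 2, 17, 6, 5 and 20, lowest in cluster 17 and highest in cluster 5. RPL18 (0.53), RPL3L (0.67) and RPLP1 (0.23), a protein of the ribosomal stalk, were the next highest.

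The paralogues with a lower level were RPS27L, with 25.1 CPM in elongating and 116 CPM in round cells (-2.21), and RPL26L1, with 34.4 CPM in elongating and 158 CPM in round cells (-2.20). RPL10L had 1081 CPM in elongating and 2190 CPM in round cells (-1.02). Across control clusters 14, 2, 17, 6, 5 and 20 the RPL10L level was 2389, 3090, 2460, 1965, 1216 and 602 CPM, highest in late spermatocyte-like cells. The parent genes RPL10, RPL26, RPS27 and RPL3 were not among the symbols found by the rule, so they could not be analysed here. Members with a parent or near-identical copies elsewhere in the genome have uncertain counts, since reads of 1 copy can be assigned to another or dropped, so levels are compared between cells and never between genes.

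The 2 spermatid stages could be compared within ZEA as well. Of 31 members tested there, 1 was more than 2-fold higher (RPL29, 1.70) and 2 were more than 2-fold lower (RPL26L1 with 68 UMIs in elongating and 98 in round cells, and RPS27L with 66 in elongating and 89 in round cells); over all genes 9.6% were higher and 21.7% lower. RPL29 had 1000 CPM in ZEA elongating cells and 307 CPM in ZEA round cells. RPL10L had 822 CPM in elongating and 1526 CPM in round cells of ZEA, a log2 ratio of -0.89. RPL18 was at 0.58 and RPS21 at -0.43. Again RPL29 was the highest of the members tested, and RPL26L1, RPS27L and RPL10L were the lowest, as in control.

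**Figure D3:**
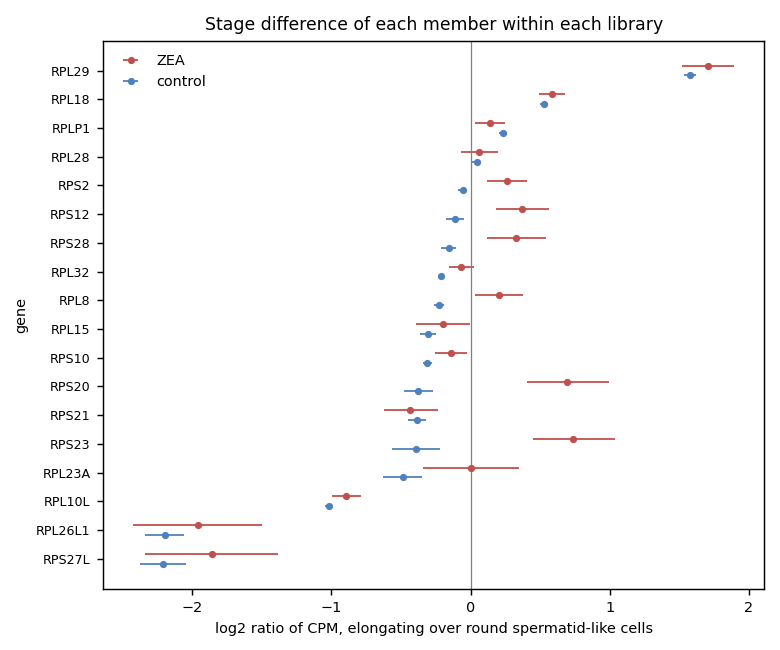
Log2 ratio of elongating over round spermatid-like cells for the members among the 22 drawn that were tested in both libraries, red for ZEA and blue for control, with exact 95% counting intervals. RPL29 is highest and RPL10L, RPL26L1 and RPS27L are lowest in both, while RPS23 and RPS20 lie above 0 in ZEA and below 0 in control.

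Between the libraries, 6 of the 33 members tested in elongating spermatid-like cells were more than 2-fold higher in ZEA and none were more than 2-fold lower; over all genes 19.5% were past 2-fold, 13.8% higher and 5.74% lower. The median log2 ratio was 0.09 over the members and 0.18 over all 7366 genes, so the whole scale sat 0.18 above 0. With ratios taken relative to that shift, 5 of the 33 members and 17.8% of all genes were past 2-fold. RPL36A, RPS23, RPS20 and RPL23A were among the 6. No member past 2-fold remained when a gene had to reach, in spermatids, 25% of its highest class level in the same library (all genes, 18.1% past 2-fold). The 14 members that met this rule did not include the 6. In ZEA elongating cells the 6 held from 3.14% (RPL36A) to 7.02% (RPL23A) of their endothelial-like level, so the rule could not test them. In cluster 4 alone 3 members were past 2-fold, RPL36A and RPS23 higher and RPS27L lower (all genes, 7.68% higher and 13.8% lower).

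RPL36A, a large subunit protein whose human gene is on the X chromosome, had 71 UMIs (31.3 CPM, 24.5 to 39.5) in ZEA elongating cells and 2 UMIs (0.15 CPM, 0.02 to 0.53) in control ones. The log2 ratio was 7.73, with a counting interval of 5.82 to 10.80. In cluster 4 alone, with 952 ZEA and 124 control cells, no tested member, RPL36A included, had a log2 ratio above 1.59. For RPL36A the control side of that ratio holds at most the 2 UMIs of the class, so its size is uncertain. In round cells RPL36A had 18 UMIs (21.4 CPM) in ZEA and 9 UMIs (0.46 CPM) in control, too few to enter the comparison. Late spermatocyte-like cells of control had 9 UMIs (0.78 CPM), and cluster 14 of control 12.8 CPM. Within cluster 14 of control it was 139 CPM (21 UMIs) in the 18 cells with leading spermatogonial markers and 4.69 CPM (11 UMIs) in the other 127. The same split of the ZEA cells did not show this, with 264 CPM (9 UMIs) in 5 cells and 323 CPM (18 UMIs) in the other 10. Its level in ZEA endothelial-like cells was 998 CPM, so ZEA elongating cells held 3.14% of that level and control elongating cells 0.01%.

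RPS23 had 236 CPM in ZEA elongating cells and 31.4 CPM in control ones, a log2 ratio of 2.91 (2.72 to 3.09). RPS20 had 233 CPM in ZEA and 82.5 CPM in control (1.5), and RPL23A 117 CPM in ZEA and 44.5 CPM in control (1.39). At the other end, RPL28 had 778 CPM in ZEA and 1131 CPM in control (-0.54), RPL8 503 CPM in ZEA and 713 CPM in control (-0.50), and RPL3L had 28 UMIs in ZEA and 267 in control (-0.68). These ratios are over the whole class. In cluster 4 alone RPS23 was past 2-fold at a log2 ratio of at most 1.59, and RPS20 and RPL23A were not past 2-fold.

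RPL36A, RPS23, RPS20 and RPL23A had a small control level relative to ZEA endothelial-like cells, as did RPS12, at 2.45% and a log2 ratio of 0.96. In control elongating cells the level was 0.49% of the endothelial-like level for RPS23, 1.41% for RPS20 and 2.68% for RPL23A. In ZEA elongating cells it was 3.66% for RPS23, 3.99% for RPS20 and 7.02% for RPL23A. ZEA minus control was 3.17 percentage points for RPS23, 2.58 for RPS20, 4.34 for RPL23A and 3.13 for RPL36A, positive by the choice of these genes. For other members it ran widely both ways, with 10.1 for RPL18 and 6.57 for RPS21 but -2.89 for RPL32, -3.04 for RPL8 and -16.4 for RPL28. The 9 endothelial markers were also higher in ZEA: they summed to 45.9 CPM, 2.33% of their level in endothelial-like cells, in ZEA elongating cells and to 3.99 CPM, 0.20%, in control ones, with 3 of the 9 at 0 in each library. In round cells the markers stood at 0.96% in ZEA and 0.16% in control. Their part in the differences of RPL36A, RPS23, RPS20 and RPL23A was not tested.

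**Figure D4:**
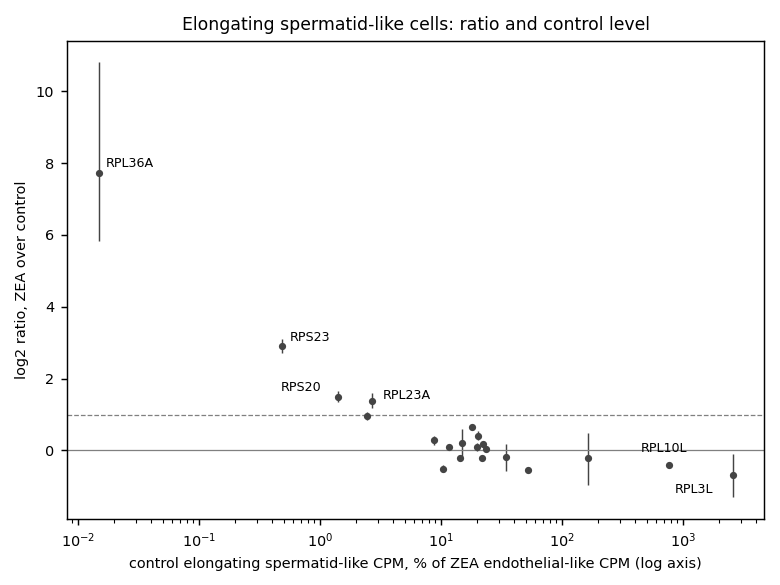
For each tested member among the 22 drawn, the log2 ratio of ZEA over control in elongating spermatid-like cells (exact 95% counting intervals) is set against its control level as a percentage of its ZEA endothelial-like level (log axis); the dashed line marks 2-fold. The 4 members above the line all lie below 3% on the horizontal axis, from RPL36A at 0.01% to RPL23A at 2.68%; both axes use the control level, so the slope is partly built in.

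In round spermatid-like cells 1 of the 32 members tested, RPS23, was more than 2-fold higher in ZEA and none were more than 2-fold lower; over all genes 20.1% were past 2-fold, 10.8% higher and 9.38% lower. RPS23 had 142 CPM in ZEA and 41.3 CPM in control (1.78, 1.49 to 2.06). RPL23A, with 117 CPM in ZEA and 62.4 CPM in control, was at 0.90 and not past 2-fold. RPL8 was lowest (437 CPM in ZEA, 834 CPM in control, -0.93) and RPL28 was at -0.56, and both were below 0 in elongating cells too. With each cell thinned to 500 UMIs, 4 members were past 2-fold in round cells, all higher, RPS23 and RPS12 among them (4 of 30, with 18.6% of all genes past 2-fold), and in cluster 12 alone, which held 46 control cells, 4 of 30 were higher and none lower (all genes, 10.5% higher and 5.62% lower). In cluster 3, 5 of 30 members were more than 2-fold higher in ZEA and RPL10L was lower (1072 CPM in ZEA, 2546 CPM in control, -1.25); over all genes 7.83% were higher and 5.38% lower.

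Between cell types of the ZEA library nearly every member was higher in the soma. Of 33 members tested, 31 were more than 2-fold higher and RPL10L was more than 2-fold lower in endothelial-like than in elongating spermatid-like cells; over all genes 51.2% were higher and 29.3% lower. The median log2 ratio was 2.96 over the members and 1.11 over all genes. RPL36A (4.99), RPS23 (4.77) and RPS20 (4.65) were highest. RPS23 had 6443 CPM in endothelial-like and 236 CPM in elongating cells, and RPS20 5839 CPM in endothelial-like and 233 CPM in elongating cells. RPL28 (1.47) was lowest among those past 2-fold higher, RPL26L1 was at 1.74, and RPS26, with 48 UMIs in endothelial-like and 20 in elongating cells, was at -0.53. Against round spermatid-like cells, 29 members were more than 2-fold higher and 2 lower (RPL10L and RPS26), with 46.9% of all genes higher and 31.4% lower.

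Besides RPL10L, RPS26 and RPL3L had a lower level in the endothelial-like cells, both with few UMIs, RPL3L with too few to enter the comparison. RPL10L had 141 CPM in endothelial-like and 822 CPM in elongating cells of ZEA, a log2 ratio of -2.55 (-2.66 to -2.44). In the other ZEA somatic classes it had 219 CPM in myoid-like, 361 CPM in perivascular-like and 561 CPM in fibroblast-like cells, the same order as the elongating spermatid markers given above. Control Sertoli-like cells had 655 CPM, and there the elongating spermatid markers stood at 23.2% of their level in ZEA elongating cells. Their part in the somatic RPL10L level was not tested. RPL36A had the reverse order, with 998 CPM in endothelial-like, 869 in myoid-like, 750 in perivascular-like, 370 in fibroblast-like cells of ZEA and 46.8 CPM (4 UMIs) in control Sertoli-like cells.

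**Figure D5:**
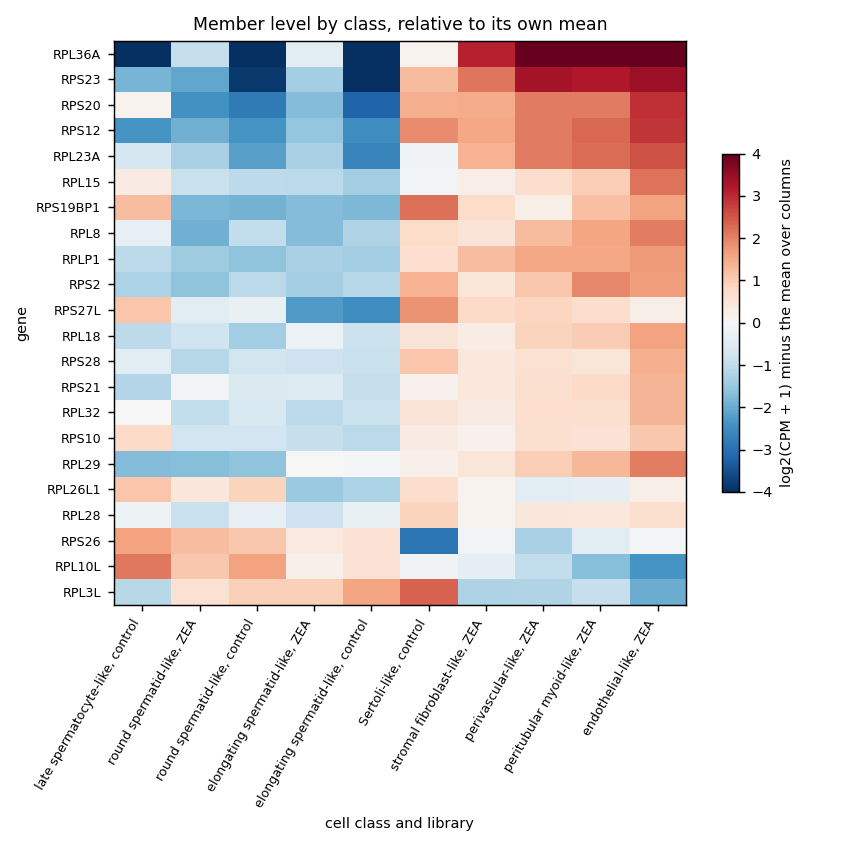
Colour shows log2(CPM + 1) of 22 members in each class and library minus the member's own mean over the 10 columns, limited to between -4 and 4. Nearly all rows are blue in the spermatid columns and red in the ZEA somatic columns; RPL10L, RPL3L and RPS26 run the other way.

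Differences among the somatic classes were smaller. In myoid-like cells no member was more than 2-fold higher than in endothelial-like cells and 1 was lower, RPL15 (1357 CPM in myoid-like, 3084 CPM in endothelial-like cells, -1.18); over all genes 8.14% were higher and 15.5% lower. RPS2 was higher in myoid-like cells, at 7087 CPM against 5975 CPM in endothelial-like cells (0.25), while the member median was -0.49. In perivascular-like cells RPL10L was more than 2-fold higher and 3 members were lower, with 15.6% of all genes higher and 14.8% lower. The 3 were RPL15 (-1.45), RPL29 (-1.06) and RPS19BP1 (-1.47, from 4 UMIs against 176 in the larger endothelial-like total). In fibroblast-like cells 1 was higher (RPL10L, 2.00) and 21 were lower, with 25.2% of all genes higher and 15.7% lower. RPL15 was lowest there too (-1.89), while RPL26L1 (-0.10) and RPLP1 (7157 CPM in fibroblast-like, 9867 CPM in endothelial-like cells, -0.46) were near their endothelial-like level.

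In control, 27 of 32 members were more than 2-fold higher in Sertoli-like than in elongating spermatid-like cells and none were more than 2-fold lower; over all genes 47.3% were higher and 19.4% lower. RPS23 (5.54), RPS20 (4.67), RPS12 (4.40) and RPS27L (4.32) were highest. RPS23 had 1462 CPM in Sertoli-like and 31.4 CPM in elongating cells, and RPS20 2105 CPM in Sertoli-like and 82.5 CPM in elongating cells. RPL10L was at -0.72 and RPL29 at 0.24. RPS23 and RPS20 were thus among the 4 highest members in both soma over spermatid comparisons, 1 in each library.

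Other translation genes were read beside them, from lists chosen with earlier results known. FAU, a ribosomal protein fused to a ubiquitin-like peptide and outside the symbol rule, had 5330 CPM in ZEA endothelial-like and 1986 CPM in ZEA elongating cells (1.42). Translation initiation factors had 16 of 30 more than 2-fold higher and 4 lower in endothelial-like than in elongating cells, near the 51.2% of all genes that were higher, with a median of 1.04 beside the 1.11 of all genes. Ribosome biogenesis genes had 22 of 31 higher and 4 lower (median 2.22), with DKC1, which modifies ribosomal RNA, at 6.31. Mitochondrial ribosomal proteins, which belong to a separate ribosome, had 29 of 55 higher and 7 lower (median 1.02). The member median of 2.96 was above each of these medians. As summed shares of UMIs these 3 lists differed little. Biogenesis genes took 0.135% in endothelial-like and 0.134% in elongating cells. Mitochondrial ribosomal proteins took 0.296% in endothelial-like and 0.299% in elongating cells, and initiation factors 0.827% in endothelial-like and 0.761% in elongating cells.

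In control round over late spermatocyte-like cells, where 36.9% of all genes were lower and 32.4% higher (median -0.42), 33 of 56 mitochondrial ribosomal protein genes were more than 2-fold lower and 2 higher (median -1.24, MRPS33 at -4.19). Initiation factors had 13 of 30 lower and 6 higher (median -0.74), with EIF2S2 at -3.59 and EIF2S1 at -3.41, subunits of the factor that brings the initiator transfer RNA, and EIF4G1, the scaffold of the cap-binding complex, at 2.73. Biogenesis genes had 14 of 30 lower and 3 higher (median -0.79), with GAR1 at -4.05. In elongating cells, where 13.8% of all genes were more than 2-fold higher in ZEA and 5.74% lower, 4 of 28 initiation factors, 3 of 17 biogenesis genes and 4 of 45 mitochondrial ribosomal protein genes were higher, and 1 gene, of the last list, was lower.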

How the data were processed

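What the authors deposited are unnormalized UMI counts, 1 matrix per library. Cell Ranger 3.1.0 and STAR are named in the submitters' processing notes. Per the file headers, Cell Ranger 3.1.0 wrote the ZEA matrix and version 5.0.0 the control matrix, so the effects of software and group cannot be told apart here. No genome build was used. Of 27054 genes, 10636 have no symbol; they count in all totals.

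Cells with at least 500 UMIs, 200 genes and at most 20% mitochondrial UMIs (13 genes) were kept. Scrublet (scanpy 1.11.5, seed 0) marked 1 ZEA barcode (0.0114%) and 198 control barcodes (2.82%), which were left out; it has not worked in ZEA, so doublets remain. Clusters (2000 variable genes, 30 components, 15 neighbours, Leiden resolution 1) were made without translation genes and, beyond the planned design, without genes lacking a symbol. A cluster was named from a marker score of at least 1 that led the next by 0.2, with at least 3 enriched markers; 15 of 23 were named.

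UMIs were summed per class and library. Shares have Clopper-Pearson intervals, CPM Poisson intervals and log2 ratios exact conditional intervals; a sum of 0 was set to 3 counts. Genes entered a comparison from 50 UMIs over both sums, and 2-fold means an absolute log2 ratio of at least 1. Ratio steps were tested on simulated data. Members, gene lists, markers and naming criteria were chosen with earlier results of these data known. Named are the 5 members with most UMIs and, per comparison, the 4 highest and 4 lowest with at least 200 UMIs and those past 2-fold; paralogues, RPL36A and other named members were chosen after their values were seen. Values of 5 members are not reported here by name; they stay in sums, counts and medians, and figures by gene draw the 22 members named in the text. Alternatives changed cell weights, depth, denominator, members, clustering, naming, scaling, count minimum, thinning and a rule on RNA from other cells.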

Additional observations from a re-analysis of the deposited data

Results flagged for a closer look

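From round to elongating spermatid-like cells, the ribosomal protein share and 6 members went opposite ways in the libraries. The log2 ratio of the share, elongating over round, was 0.045 in ZEA and -0.16 in control. RPS23 had 0.74 in ZEA and -0.39 in control, and RPS20 0.70 in ZEA and -0.38 in control. RPS12 had 0.37 in ZEA and -0.11 in control, RPS28 0.33 in ZEA and -0.16 in control, RPS2 0.26 in ZEA and -0.058 in control, and RPL8 0.20 in ZEA and -0.23 in control. The members listed are those whose counting intervals lie on opposite sides of 0. With 1 library per group the difference between the libraries was not tested.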

How the results depend on the processing

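No paired analysis was possible because each group has 1 library. Over all kept cells the log2 ratio of the share (1.68) was 1.47 with equal weight per cell, 1.78 in cells with at least 2000 UMIs, 1.69 without mitochondrial genes in the total and 1.73 without RPL32. In round spermatid-like cells (-0.19) it was -0.33 with clusters made from all genes (16 ZEA cells), 0.084 with unnamed clusters in their best-scoring class and -0.0040 in cluster 12 alone. In elongating cells (0.016) it was 0.070 with equal weight, 0.00055 from 2000 UMIs, 0.036 without RPL32, -0.082 with all-gene clusters, 0.044 with unnamed clusters assigned, -0.11 in cluster 4 alone and -0.047 without the members more than 2-fold higher in ZEA. The count of members past 2-fold in round cells (1) was 2 with no minimum (all genes, 52.6% past 2-fold), 2 from 2000 UMIs (18.7%), 4 with thinning (18.6%), 0 with the rule on RNA from other cells (18.4%), 3 with all-gene clusters (47.2%) and 4 in cluster 12 alone (16.1%); in elongating cells (6) it was 0 with that rule (18.1%) and 3 in cluster 4 alone (21.4%). The rule on RNA from other cells left the members past 2-fold out before any ratio was read. The cause of the other shifts was not tested. Analyses of clusters 4 and 12 alone, without shared barcodes and without the higher members were chosen after seeing the data. Called doublets had no class, so keeping them was run only over all kept cells. Depth limits RPL36A, RPL3L, RPS26 and RPS19BP1, which had few UMIs in most classes.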

Other observations

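Several unnamed clusters also held many ribosomal protein UMIs. Cluster 1, led by MMRN1, INSL3, CTSW and STAR, which mark different cell types, had a share of 7.51% in 1449 ZEA cells and 6.96% in 97 control cells, at median depths of 772 UMIs in ZEA and 682 in control. Endothelial markers stood at 55.1% of their endothelial-like level in its ZEA cells and at 6.97% in its control cells. Cluster 9 held 416 ZEA cells at a median of 9655 UMIs, near that of control late spermatocyte-like cells, with round spermatid and late spermatocyte scores almost equal. Its share was 2.52%, between round and late spermatocyte-like cells of control. RPL10L had 2115 CPM there, RPS23 160 CPM and RPL36A 13.6 CPM.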
